A study of Bombyx mori with 12 samples.

Results

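BMC1 is a family of LINE retrotransposons of the silkworm Bombyx mori, and its entries were taken as all rows whose superfamily is given as Jockey-BMC1 in the tables of transposon levels. There were 3 such entries, BMC1-Abe, L1Bm and Supermite-BMC1, of 1716 entries in all and of 249 entries of the class LINE. A further 24 entries carry the plain superfamily name Jockey and were kept apart. The entries were measured in BmN4, a cell line cultured from silkworm ovary. RNA-seq of poly-A RNA was made from cells given siRNA against Siwi (SiwiKD), against Mael (MaelKD) or, as the control, against luciferase (LucKD). Small RNA bound to Flag-tagged Siwi was sequenced from cells given siRNA against Ago3 (Ago3KD), Mael (MaelKD) or luciferase (LucKD). Each group had 2 libraries, 12 in all, and all cells were collected on day 10 of the knockdown, after nucleofection with 500 pmol of siRNA that was done again to strengthen it. The cells grew at 26 °C, and the small RNA was size-selected at 22 to 35 nt.

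LINE elements lack the long terminal repeats of retroviruses and copy themselves by reverse transcribing their own RNA at the site of insertion, which often leaves copies cut short at the 5′ end. A full-length BMC1 copy was described from the W chromosome of the silkworm, the chromosome carried only by females. PIWI-interacting RNAs (piRNAs) guide PIWI proteins to transposon RNA. The silkworm has Siwi and Ago3, and in the ping-pong cycle each protein cleaves transposon RNA into precursors of piRNAs for the other. Maelstrom (Mael) is a conserved protein of animal germ cells that acts in the piRNA pathway.

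Library totals, worked out from the values as those that make them whole reads, were 32487082 to 45155711 reads for RNA. For small RNA they were 1763511 to 4806161 reads. A search for lengths that give whole reads in RNA found 5091 bases for BMC1-Abe, 2303 for L1Bm and 1991 for Supermite-BMC1. The smallest such length was taken, which can be too short where an entry has few RNA reads. Ranks and medians per length of small RNA rest on such lengths of the other entries too. BMC1-Abe was covered by 916 to 1350 RNA reads and 1921 to 20462 small RNA reads per library, L1Bm by 715 to 1309 and 2396 to 15956, and Supermite-BMC1 by 171 to 268 and 128 to 1633. Whether each library had a culture of its own is not in the labels, and the library-to-library spread behind the p-values may be technical. With 2 libraries a group, limma's estimate of the spread of an entry also borrows from the other tested entries. The p-values therefore rest in part on those other entries. The tables hold transposons only, so the knockdown targets and the identity of the cells were not checked. Values are RPKM in RNA, which is scaled to the length of the entry and the size of the library, and RPM in small RNA, which is scaled to the size of the library alone. An RPM is a part of the Siwi-bound pool, not an amount per cell. Less of an RNA per cell and fewer cells that carry it cannot be told apart. How reads that match several entries were counted is not given in the sources, and entries of similar sequence may share reads. All 3 passed the filter of a mean of at least 1 in both tables.

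Siwi-bound small RNA of BMC1-Abe and Supermite-BMC1 rose after Mael knockdown, by 3.38-fold (BMC1-Abe) and 4.17-fold (Supermite-BMC1), while that of all 3 entries fell after Ago3 knockdown, by 1.25 (BMC1-Abe), 1.56 (L1Bm) and 1.17 (Supermite-BMC1) on the log2 scale. Among all 1004 tested entries, 11.8% were called higher after Mael knockdown and 40.6% lower after Ago3 knockdown. In RNA, 1 of the 3 entries passed the test in 1 comparison: L1Bm fell by 0.63 on the log2 scale after Siwi knockdown, where 3.06% of 490 tested entries were called lower. No BMC1 entry passed the test in RNA after Mael knockdown, with log2 changes of 0.04 (BMC1-Abe), -0.25 (L1Bm) and 0.05 (Supermite-BMC1), where 11% of the 490 entries were called in either direction, and 0 of the 3 had an unadjusted limma p under 0.05 or an adjusted p under 0.05 with edgeR on recovered reads. Changes are differences of log2(value + 1) from limma, with Benjamini-Hochberg adjustment over all tested entries of the table and a threshold of 0.05.

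**Figure D1:**
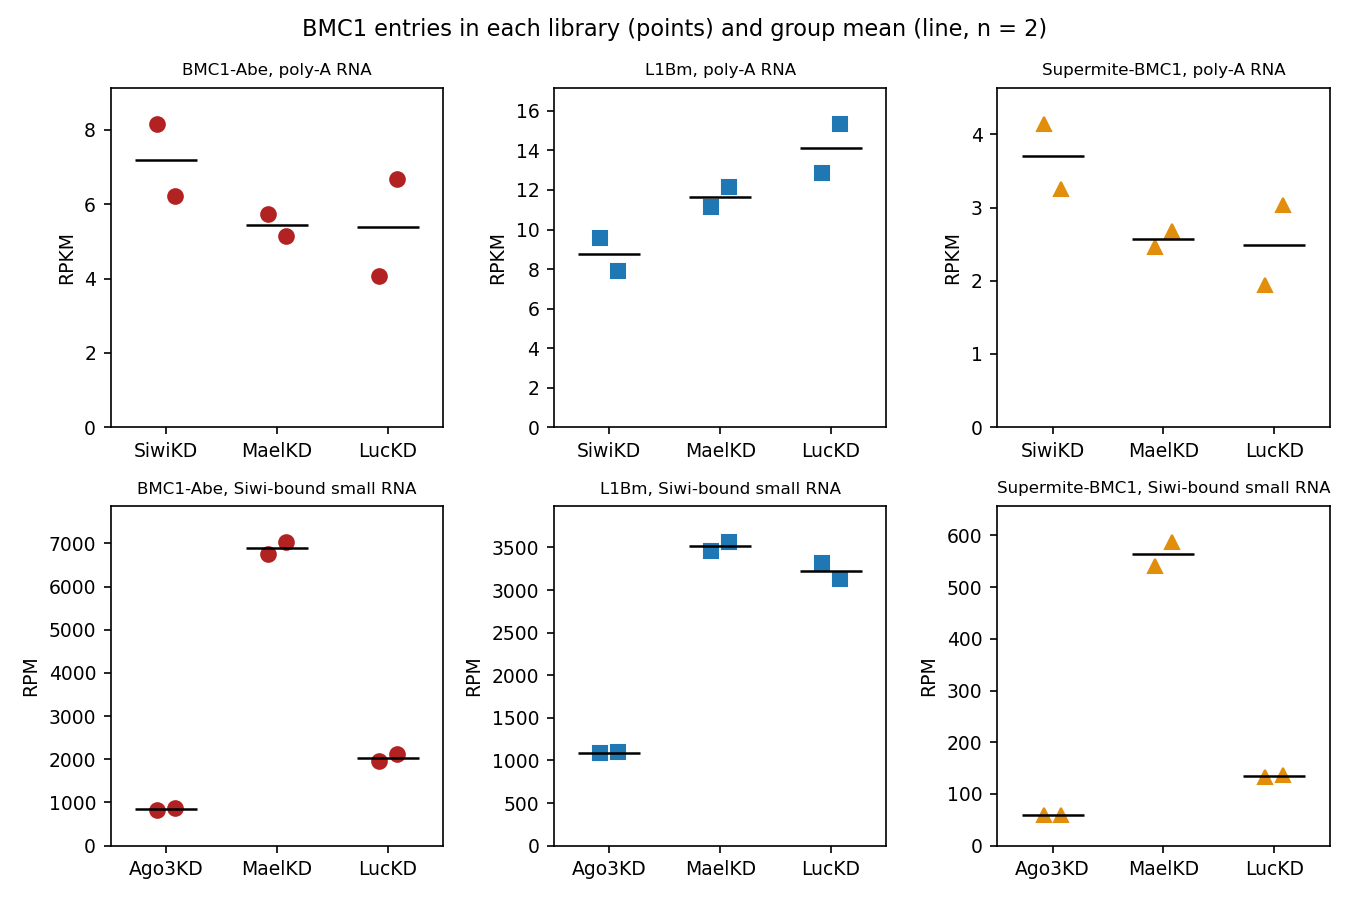
Levels of the BMC1 entries in each library, with poly-A RNA in RPKM above and Siwi-bound small RNA in RPM below, each point a library and each line a group mean (n = 2). BMC1-Abe and Supermite-BMC1 stood highest in small RNA of MaelKD cells, at means of 6896 and 563 RPM, while L1Bm RNA was lowest in SiwiKD cells, at a mean of 8.74 RPKM.

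SiwiKD cells set against LucKD cells show whether BMC1 transcripts differ when the PIWI protein that binds these piRNAs is targeted. L1Bm, shorter than BMC1-Abe and the BMC1 entry with the most RNA per length in control cells, had 9.56 and 7.92 RPKM in SiwiKD cells, against 12.9 and 15.3 RPKM in LucKD cells. Both SiwiKD libraries lay below both controls. L1Bm fell to 8.74 ± 1.16 RPKM in SiwiKD cells, against 14.1 ± 1.75 RPKM in LucKD cells (SD, n = 2 each), a log2 change of -0.63 ± 0.19 (SE) with limma adjusted p = 0.0145. Over all 490 tested entries, 27.3% were called, 24.3% higher and 3.06% lower, which is 119 and 15 entries, or 90 and 43 with trimmed-mean scaling and 68 and 98 when scaled to the transposon total. Counted from the lowest change, L1Bm had rank 9 of the 490 entries and rank 3 of the 78 tested LINE entries. The call rested on single libraries: the change was -0.51 without LucKD replicate 2 (limma adjusted p = 0.108) and -0.51 without SiwiKD replicate 2 (limma adjusted p = 0.0967), and the call was also lost with no filter on low values (limma adjusted p = 0.0689).

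The other two BMC1 entries had higher means in SiwiKD cells and did not pass the test. BMC1-Abe, the longest entry of the family, had 8.16 and 6.22 RPKM in SiwiKD cells and 4.07 and 6.68 RPKM in LucKD cells. The groups overlapped, with LucKD replicate 1 apart from the other 3 libraries at the low end. The log2 change of 0.38 ± 0.22 had a 95% interval of -0.07 to 0.84 (limma adjusted p = 0.222), and without LucKD replicate 2 it was 0.68 and passed (limma adjusted p = 0.0372). Supermite-BMC1 had 4.14 and 3.26 RPKM in SiwiKD cells and 1.94 and 3.03 RPKM in LucKD cells. These groups did not overlap, but the log2 change of 0.44 ± 0.24 missed the threshold (95% interval -0.04 to 0.92, limma adjusted p = 0.180). Of 14 tested entries of the Jockey superfamily, 0 passed limma's test in this comparison, 2 had an unadjusted p under 0.05, and 1 passed with edgeR on recovered reads. Their median log2 change was 0.15. Of the 75 tested LINE entries outside BMC1, 17 rose and 1 fell, with a median of 0.22 against 0.15 over all 490 entries. Trimmed-mean scaling put the median of all entries at -0.01 and gave BMC1-Abe 0.20, L1Bm -0.82 and Supermite-BMC1 0.29. Scaling to the transposon total put it at -0.19 and gave BMC1-Abe 0.017, L1Bm -1.02 (limma adjusted p = 0.000154) and Supermite-BMC1 0.12.

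After Mael knockdown no difference of BMC1 RNA from control was called. BMC1-Abe had 5.73 and 5.14 RPKM in MaelKD cells, between the 2 LucKD values of 4.07 and 6.68 RPKM. Its log2 change was 0.04 ± 0.22, with a 95% interval of -0.41 to 0.50 (limma adjusted p = 0.969). Supermite-BMC1 had 2.46 and 2.68 RPKM in MaelKD cells, also between the LucKD values of 1.94 and 3.03 RPKM, and changed by 0.05 ± 0.24 (95% interval -0.43 to 0.53). L1Bm had 11.1 and 12.1 RPKM in MaelKD cells, below both LucKD values of 12.9 and 15.3 RPKM, with a log2 change of -0.25 ± 0.19 that missed the threshold (limma adjusted p = 0.563). In this comparison 11% of the 490 entries were called, 8.37% higher and 2.65% lower, 41 and 13 entries, or 32 and 35 when scaled to the transposon total. Of the 14 Jockey entries, 0 passed with limma or edgeR and 1 had an unadjusted limma p under 0.05, while 3 of the 75 LINE entries outside BMC1 rose.

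Set directly against SiwiKD cells, MaelKD cells had 11.6 ± 0.715 RPKM of L1Bm and SiwiKD cells 8.74 ± 1.16 RPKM (SD, n = 2 each). Both MaelKD libraries lay above both SiwiKD libraries, and the log2 difference of 0.38 ± 0.19 missed the threshold (limma adjusted p = 0.209), although with trimmed-mean scaling it was 0.57 and passed (limma adjusted p = 0.0362). BMC1-Abe was at 5.44 ± 0.413 RPKM in MaelKD cells and 7.19 ± 1.37 RPKM in SiwiKD cells, a log2 difference of -0.34 ± 0.22 (limma adjusted p = 0.362). Supermite-BMC1 was at 2.57 ± 0.159 RPKM in MaelKD cells and 3.70 ± 0.628 RPKM in SiwiKD cells, a log2 difference of -0.39 ± 0.24 (limma adjusted p = 0.308). Of all 490 entries, 20.4% were called, 1.63% higher and 18.8% lower after Mael than after Siwi knockdown, 8 and 92 entries, or 12 and 45 with trimmed-mean scaling and 12 and 50 when scaled to the transposon total. Both knockdowns share their control libraries, so their changes against control are given side by side only. The order of L1Bm RNA was thus SiwiKD lowest, then MaelKD, then LucKD, with no overlap between neighbours, and only SiwiKD against LucKD passed the test.

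Siwi-bound small RNA of the BMC1 entries was lower after Ago3 knockdown, the knockdown of the partner PIWI protein. L1Bm had 1083 and 1100.3 RPM in Ago3KD cells, against 3320 and 3132 RPM in LucKD cells. BMC1-Abe had 833 and 882 RPM in Ago3KD cells, against 1971 and 2112 RPM in LucKD cells. Supermite-BMC1, with the least small RNA of the 3 entries, had 59.0 and 58.8 RPM in Ago3KD cells, against 132 and 136 RPM in LucKD cells. In each entry both Ago3KD libraries lay below both controls by far more than the libraries of a group differed. The log2 changes were -1.56 ± 0.07 for L1Bm (limma adjusted p = 3.49e-21), -1.25 ± 0.07 for BMC1-Abe (limma adjusted p = 6.56e-18) and -1.17 ± 0.11 for Supermite-BMC1 (limma adjusted p = 3.30e-12). These were falls of 2.95-fold for L1Bm, 2.38-fold for BMC1-Abe and 2.26-fold for Supermite-BMC1. The listed transposons made 36.1% and 37.1% of the library in Ago3KD cells and 42.4% and 43.7% in LucKD cells, and the part of this in the changes was not tested. Of 1004 tested entries, 57.5% were called, 40.6% lower and 16.8% higher, 408 and 169 entries, or 295 and 262 with trimmed-mean scaling and 338 and 247 when scaled to the transposon total. The 19 tested Jockey entries had a median of -1.16, near the values of the BMC1 entries, and 13 of them fell while 1 rose. The 169 LINE entries outside BMC1 had a median of -0.60, and 86 of them fell while 18 rose. Over all 1004 entries the median was -0.28, and trimmed-mean scaling put it at 0.01 and the BMC1 changes at -1.24 (L1Bm), -0.93 (BMC1-Abe) and -0.86 (Supermite-BMC1). Scaling to the transposon total put the median at -0.06. The BMC1 changes were then -1.33 (L1Bm), -1.01 (BMC1-Abe) and -0.94 (Supermite-BMC1), all still called.

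After Mael knockdown the BMC1 entries parted. BMC1-Abe had 6767 and 7025 RPM in MaelKD cells, against 1971 and 2112 RPM in LucKD cells. Supermite-BMC1 had 540.0 and 587 RPM in MaelKD cells, against 132 and 136 RPM in LucKD cells. L1Bm had 3464 and 3559 RPM in MaelKD cells, against 3320 and 3132 RPM in LucKD cells. The MaelKD libraries were far above both controls in BMC1-Abe and Supermite-BMC1, and just above them in L1Bm.

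The log2 change after Mael knockdown was 1.76 ± 0.07 in BMC1-Abe (limma adjusted p = 2.01e-22) and 2.06 ± 0.11 in Supermite-BMC1 (limma adjusted p = 2.40e-19). In L1Bm it was 0.12 ± 0.07, with a 95% interval of -0.03 to 0.27, and missed the threshold (limma adjusted p = 0.157). Of the 1004 tested entries, 56.2% were called, 11.8% higher and 44.4% lower, 118 and 446 entries, or 261 and 194 with trimmed-mean scaling and 81 and 505 when scaled to the transposon total. Counted from the highest change, Supermite-BMC1 had rank 5 and BMC1-Abe rank 12 of the 1004 entries. Among the 172 tested LINE entries Supermite-BMC1 had rank 1, BMC1-Abe rank 4 and L1Bm rank 42. Outside BMC1, the 169 LINE entries had a median of -0.51, and 20 rose while 83 fell. The 19 Jockey entries had a median of 0.12, and 7 rose while 5 fell. The median of all entries was -0.44, and 0.07 with trimmed-mean scaling, under which BMC1-Abe changed by 2.34, Supermite-BMC1 by 2.65 and L1Bm by 0.71, a call (limma adjusted p = 8.00e-09). Scaled to the transposon total, which put the median of all entries at -0.60, L1Bm was at -0.07 and not called. BMC1-Abe was then at 1.56 and Supermite-BMC1 at 1.87, both called. The direction of L1Bm small RNA after Mael knockdown thus turned with the scaling, and those of BMC1-Abe and Supermite-BMC1 did not. The listed transposons made 49.4% and 49.2% of the library in MaelKD cells, more than in either control, and their part in the changes was not tested.

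**Figure D2:**
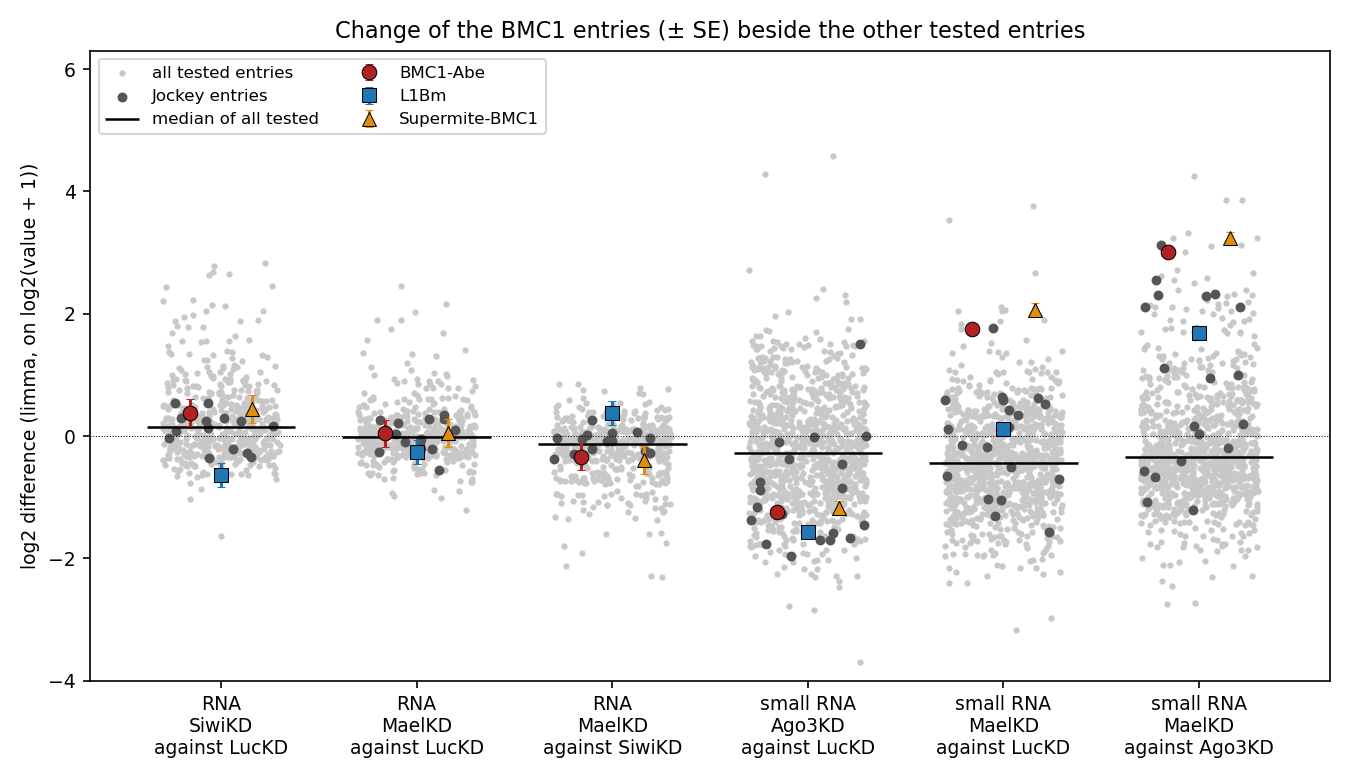
Log2 differences in the RNA and small RNA comparisons, with BMC1 entries as coloured symbols with standard errors, Jockey entries as dark points, all tested entries as light points and their median as a line (490 entries in RNA, 1004 in small RNA). In small RNA after Mael knockdown, BMC1-Abe (1.76) and Supermite-BMC1 (2.06) stood near the top of the spread and L1Bm at 0.12.

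MaelKD and Ago3KD cells differed in Siwi-bound small RNA of all 3 entries. Supermite-BMC1 was at 563 ± 33.0 RPM in MaelKD cells and 58.9 ± 0.123 RPM in Ago3KD cells, a log2 difference of 3.24 ± 0.11 (limma adjusted p = 2.66e-26). BMC1-Abe was at 6896 ± 182 RPM in MaelKD cells and 858 ± 34.5 RPM in Ago3KD cells, a log2 difference of 3.01 ± 0.07 (limma adjusted p = 6.33e-31). L1Bm was at 3511 ± 67.4 RPM in MaelKD cells and 1092 ± 12.2 RPM in Ago3KD cells, a log2 difference of 1.68 ± 0.07 (limma adjusted p = 1.11e-22). Of the 1004 entries, 52.4% were called, 20.7% higher and 31.7% lower in this comparison, 208 and 318 entries, or 263 and 201 with trimmed-mean scaling and 130 and 544 when scaled to the transposon total. Counted from the highest difference, Supermite-BMC1 had rank 6, BMC1-Abe rank 9 and L1Bm rank 51 of the 1004 entries. Of the 19 Jockey entries 11 were higher and 2 lower, with a median of 0.95.

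Ratios between the entries within a library do not depend on how libraries are scaled. Per length of entry, the small RNA ratio of BMC1-Abe to L1Bm was 0.348 and 0.363 in Ago3KD cells, 0.884 and 0.893 in MaelKD cells and 0.269 and 0.305 in LucKD cells. MaelKD cells stood apart from both other groups, and Ago3KD cells were slightly above LucKD cells with no overlap. Supermite-BMC1 over L1Bm showed the same order, with 0.0630 and 0.0618 in Ago3KD cells, 0.180 and 0.191 in MaelKD cells and 0.0460 and 0.0503 in LucKD cells. The ratio of Supermite-BMC1 to BMC1-Abe had means of 0.176 ± 0.00743 in Ago3KD cells, 0.209 ± 0.00670 in MaelKD cells and 0.168 ± 0.00470 in LucKD cells (SD, n = 2). Both MaelKD libraries were above the other 4 libraries in this ratio too, by less than in the ratios to L1Bm, and Ago3KD and LucKD cells overlapped.

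In RNA, whose RPKM are already per length, the ratio of BMC1-Abe to L1Bm was 0.854 and 0.786 in SiwiKD cells, 0.515 and 0.424 in MaelKD cells and 0.317 and 0.435 in LucKD cells. SiwiKD cells stood above the other two groups, which overlapped. Supermite-BMC1 over L1Bm was 0.434 and 0.411 in SiwiKD cells, 0.221 in both MaelKD libraries and 0.151 and 0.197 in LucKD cells. Supermite-BMC1 over BMC1-Abe was 0.429 to 0.523 over all 6 libraries. With 2 libraries against 2, an exact permutation test (two-sided) cannot go below p = 0.333, so these ratios are given as descriptions.

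**Figure D3:**
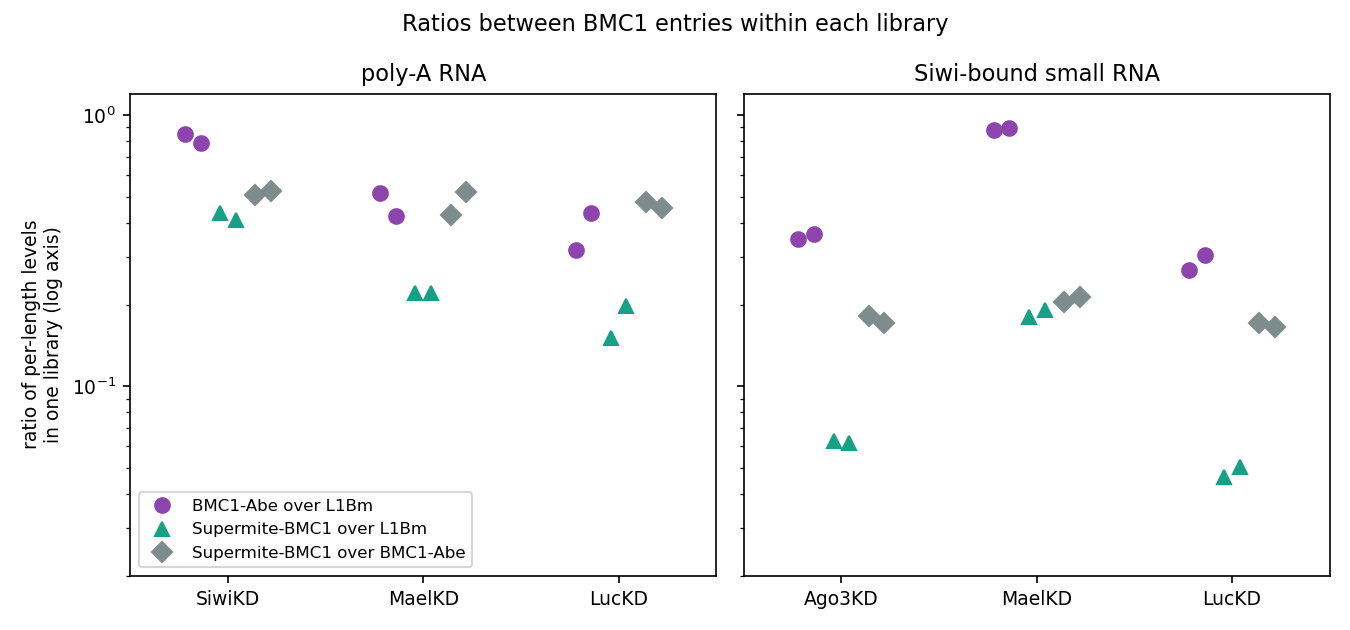
Ratios of per-length levels between BMC1 entries within each library on a log axis, each point a library, with poly-A RNA on the left and Siwi-bound small RNA on the right. BMC1-Abe over L1Bm was highest in SiwiKD cells in RNA (0.854 and 0.786) and in MaelKD cells in small RNA (0.884 and 0.893), while Supermite-BMC1 over BMC1-Abe varied least.

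Per length, L1Bm had the most Siwi-bound small RNA of the family in control cells. It was at 1401 ± 57.7 RPM per kb in LucKD cells (SD, n = 2), rank 2 of the 141 tested LINE entries for which a length was recovered, below BmTE_RM6-18, a Jockey entry at 3631 ± 280.0 RPM per kb, and above BmTE_RM6-4101, a CR1-L2 entry at 1323 ± 97.9 RPM per kb. BMC1-Abe was at 401 ± 19.6 RPM per kb, rank 15, and Supermite-BMC1 at 67.4 ± 1.41 RPM per kb, rank 68, against a LINE median of 54.0 RPM per kb. In MaelKD cells the levels were 1525 ± 29.3 (L1Bm), 1354 ± 35.8 (BMC1-Abe) and 283 ± 16.6 RPM per kb (Supermite-BMC1), ranks 5, 8 and 22, against a LINE median of 28.8 RPM per kb. In Ago3KD cells they were 474 ± 5.31 (L1Bm), 168 ± 6.77 (BMC1-Abe) and 29.6 ± 0.0616 RPM per kb (Supermite-BMC1), ranks 3, 20 and 74. L1Bm and BMC1-Abe thus had nearly equal small RNA per length in MaelKD cells while L1Bm was far higher in control cells. The 4 LINE entries nearest to BMC1-Abe in control level had log2 changes after Mael knockdown of -0.06 (TREST-W), -0.36 (R1Bm, an rDNA element), -0.55 (BmTE_RM6-98) and 1.76 (BmTE_RM5-1065), where the median of all entries was -0.44 and moved with the scaling. Whether BmTE_RM5-1065 and BMC1-Abe share reads was not tested. Those nearest to L1Bm changed by 0.59 (BmTE_RM6-18), -0.51 (BmTE_RM6-4101) and 0.34 (BmTE_RM1-25). Those nearest to Supermite-BMC1 changed by -0.80 (BmTE_RM1-263), -0.15 (Kimutaku), 0.40 (BmTE_RM1-1) and -0.72 (Kendo).

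The 3 entries together held 0.201% ± 0.00466 of the Siwi-bound library in Ago3KD cells, 1.10% ± 0.0283 in MaelKD cells and 0.540% ± 0.00304 in LucKD cells (SD, n = 2). As a part of all reads listed under LINE entries, this was 4.92% ± 0.0860 in Ago3KD cells, 9.03% ± 0.0504 in MaelKD cells and 5.79% ± 0.294 in LucKD cells. BMC1-Abe alone made 2.10% ± 0.0725 of the LINE small RNA in Ago3KD cells, 5.68% ± 0.0355 in MaelKD cells and 2.18% ± 0.00815 in LucKD cells. L1Bm made 2.67% ± 0.0147 in Ago3KD cells, 2.89% ± 0.00292 in MaelKD cells and 3.46% ± 0.298 in LucKD cells. In RNA the 3 entries held 1.87% ± 0.203 of the LINE reads in SiwiKD cells, 2.08% ± 0.115 in MaelKD cells and 2.20% ± 0.356 in LucKD cells, which overlapped.

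MaelKD and LucKD cells were measured in both assays, which allows small RNA per length to be set beside RNA, although the libraries of the 2 assays are not matched. BMC1-Abe had 249 RPM per kb of small RNA for each RPKM of RNA in MaelKD cells and 74.6 in LucKD cells. Supermite-BMC1 had 110.1 in MaelKD cells and 27.1 in LucKD cells. L1Bm had 131 in MaelKD cells and 99.3 in LucKD cells. Among 74 LINE entries tested in both tables, with a median of 10.5 in MaelKD cells and 16.1 in LucKD cells, BMC1-Abe had rank 5 in MaelKD cells and 13 in LucKD cells. Supermite-BMC1 had rank 11 in MaelKD cells and 28 in LucKD cells, and L1Bm rank 10 in MaelKD cells and 9 in LucKD cells. The control values rest on RNA libraries that differ: that of BMC1-Abe was 60.0 to 98.5 when 1 library was left out.

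**Figure D4:**
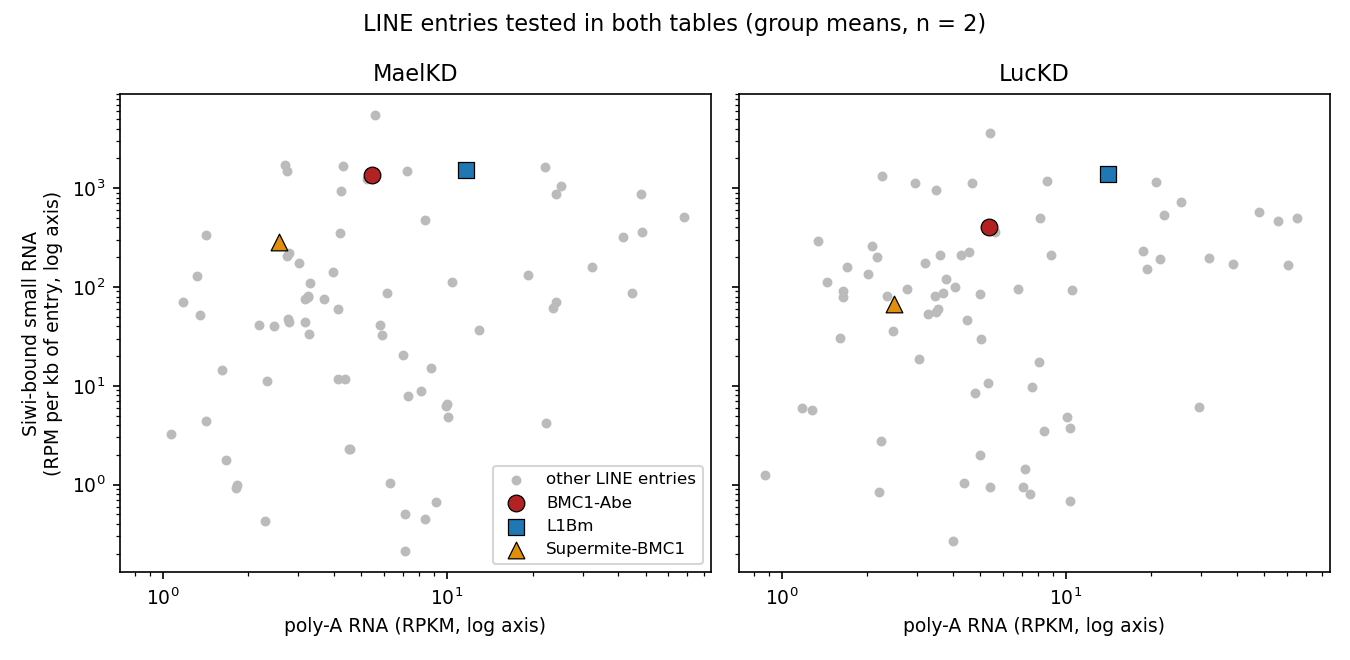
Siwi-bound small RNA per kb against poly-A RNA on log axes for the 74 LINE entries tested in both tables, MaelKD cells on the left and LucKD cells on the right, each point a group mean (n = 2). BMC1-Abe stood at 1354 RPM per kb and 5.44 RPKM of RNA in MaelKD cells and at 401 RPM per kb and 5.38 RPKM in LucKD cells, while L1Bm was at 1525 RPM per kb in MaelKD cells and 1401 RPM per kb in LucKD cells.

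The patterns of all entries tested in both tables were compared with each BMC1 entry by Pearson's r of log2(value + 1), centred within each table, over the 12 libraries. These values share libraries and scaling and are descriptions. The spread was not made equal between RNA and small RNA, so the assay with the larger changes weighs more in r. For BMC1-Abe and Supermite-BMC1 that was small RNA, and a high r says little about likeness in RNA. BMC1-Abe was most like the Jockey entry BmTE_RM5-1065 (r = 0.997), whose levels were nearly the same throughout: its small RNA was at 805 ± 64.4 RPM in Ago3KD cells, 7042 ± 289 RPM in MaelKD cells and 2076 ± 50.0 RPM in LucKD cells, and its RNA at 6.62 ± 0.455 RPKM in SiwiKD cells, 5.22 ± 0.465 RPKM in MaelKD cells and 5.62 ± 2.29 RPKM in LucKD cells. The recovered length of BmTE_RM5-1065 was 5730 bases. Whether the same reads were counted under both names was not tested. Next for BMC1-Abe came the mariner DNA transposon Mariner-2_BM (r = 0.996) and Supermite-BMC1 (r = 0.996).

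Supermite-BMC1 was most like Mariner-2_BM (r = 0.999), followed by BMC1-Abe (r = 0.996) and the Gypsy LTR element BmRT3 (r = 0.992). Pearson's r leaves out the size of the changes. In small RNA after Mael knockdown the log2 change was 1.39 in Mariner-2_BM, 2.06 in Supermite-BMC1 and 1.76 in BMC1-Abe. After Ago3 knockdown it was -0.78 in Mariner-2_BM, -1.17 in Supermite-BMC1 and -1.25 in BMC1-Abe. Mariner-2_BM small RNA was at 27764 ± 1323 RPM in MaelKD cells and 10569 ± 392 RPM in LucKD cells, and since the entry was picked for its likeness over these libraries, the difference is a description. L1Bm had r = 0.755 with BMC1-Abe and 0.723 with Supermite-BMC1. Its closest patterns were the Transib DNA transposon BmTE_RM6-3241 (r = 0.967), the Jockey entry BmTE_RM1-25 (r = 0.966) and the DIRS entry BmTE_RM1-274 (r = 0.960). A Jockey entry named L1BM, which differs from L1Bm only in the case of its letters and was chosen after its values were seen, is a separate row. Small RNA of the row L1BM was at 1088 RPM in Ago3KD cells, 5441 RPM in MaelKD cells and 3556 RPM in LucKD cells, a log2 change after Mael knockdown of 0.62 ± 0.08, which lay between the change of L1Bm and that of BMC1-Abe.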

How the data were processed

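The authors deposited RPKM values for RNA and RPM values for small RNA, as the headers of the files name them. The submitters' processing notes list STAR 2.7.9a, Trim Galore, Bowtie 1.3.0, cutadapt 3.1, bedtools and SAMtools. What each did, the genome build and the handling of strand and of multiple matches were not given in the sources used here. Per the labels' protocols, RNA libraries were stranded and paired, and small RNA was read for 51 nt. Every RPM value was a whole number of reads within 0.001 (100% of values), as were the RPKM of 978 of 978 entries above 0 once library totals and entry lengths were searched.

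Values were tested as log2(value + 1) with limma 3.58.1 in R 4.3.3 (trend, two-sided) over entries with a mean of at least 1, all 6 libraries of a table sharing the spread, and without a replicate block. Replicate numbers came from the sample titles. The test was also run on simulated reads, for SiwiKD against LucKD in RNA and Ago3KD against LucKD in small RNA only. The outcome of that run is not given here. The members and lists were chosen with earlier results of these data known. Besides the 3 BMC1 entries, the text names the 3 entries most like each in pattern, the LINE neighbours in control level of small RNA, and the row L1BM. Alternatives covered pseudocount, filter, scaling, libraries fitted, block, single libraries and edgeR 4.0.16 on recovered reads. The filter, the libraries fitted, the block and leaving out a library of the group not compared cannot move a log2 change, only its p-value. Such refits test the side of the threshold alone, not the direction.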

Additional observations from a re-analysis of the deposited data

How the results depend on the processing

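Of 264 refits of the 18 log2 changes of BMC1 entries, 252 kept direction and side of the threshold, many where direction could not turn. Of the rest, 3 lost a call, 3 gained one and 6 turned in sign, none of these last a called change. The Siwi-bound small RNA calls of all 3 entries after Ago3 knockdown, and of BMC1-Abe and Supermite-BMC1 after Mael knockdown, held under every alternative, with ranges of 1.56 to 2.34 for BMC1-Abe and 1.87 to 2.65 for Supermite-BMC1 in the last. L1Bm RNA after Siwi knockdown lost its call with no filter on low values (-0.63), and leaving out 1 library gave -0.76 to -0.51. It was -1.02 with scaling to the transposon total and -0.36 with a pseudocount of 10, both called. In that comparison BMC1-Abe RNA ranged from 0.083 to 0.68 and Supermite-BMC1 RNA from 0.22 to 0.67 with 1 library left out. With scaling to the transposon total they were 0.017 (BMC1-Abe) and 0.12 (Supermite-BMC1), and with a pseudocount of 10 they were 0.16 (BMC1-Abe) and 0.13 (Supermite-BMC1). RNA after Mael knockdown turned in sign with scaling to the transposon total, to -0.14 for BMC1-Abe and -0.10 for Supermite-BMC1, and with 1 library left out ranged from -0.26 to 0.34 for BMC1-Abe and from -0.17 to 0.28 for Supermite-BMC1. Where 1 library of a group is left, it is assumed to vary like the other groups. L1Bm RNA after Mael against Siwi knockdown passed with trimmed-mean scaling (0.57). L1Bm small RNA after Mael knockdown passed with trimmed-mean scaling (0.71) and was -0.073 with scaling to the transposon total. The cause was not tested in any of these cases. A mean of at least 10 left BMC1-Abe and Supermite-BMC1 out of the RNA test.

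Counts of calls over all RNA entries moved by over 1.5 times in places. For Siwi knockdown against control the 134 calls were 74 with no filter and 63 with a mean of at least 10. For Mael knockdown against control the 54 calls were 19 with no filter, 31 with a mean of at least 10 and 18 to 63 with 1 library left out (33 without LucKD replicate 1, 30 without MaelKD replicate 1, 18 without MaelKD replicate 2). For Mael against Siwi knockdown the 100 calls were 30 with no filter, 42 with a mean of at least 10, 57 with trimmed-mean scaling, 62 with scaling to the transposon total and 34 to 100 with 1 library left out (63 without SiwiKD replicate 1, 61 without MaelKD replicate 1, 34 without MaelKD replicate 2).

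Same-numbered libraries showed no shared deviation, with correlations of same-numbered deviations between groups of -0.0461 to 0.0454. Whether same-numbered libraries were made together is not in the labels, and these correlations cannot tell. A replicate block changed no call of a BMC1 entry, and L1Bm RNA after Siwi knockdown had limma adjusted p = 0.0106 with it. It gave 148 calls in place of 134 for that comparison. edgeR's quasi-likelihood test on recovered reads also changed no call of a BMC1 entry. RNA depth limits Supermite-BMC1 most, with 171 to 268 reads per library, and such limits cover counting error only.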
